A study of Homo sapiens with 6 samples.

Results

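The genes described here are 43 genes of the G2 phase and of mitosis, named in a list of cyclins, kinases, kinetochore proteins, spindle motors and cytokinesis factors. They were taken by symbol from an expression table of 18249 genes, where all 43 were found, and by gene symbol from a list of 15940 m6A peaks. N6-methyladenosine (m6A) is a methyl mark on mRNA, and METTL3 is the methyltransferase that adds it. The cells were labelled as TE-10, an established line from a human esophageal squamous carcinoma. RNA-seq covered 2 libraries of cells carrying short hairpins for stable knockdown of METTL3 (knockdown 1 and knockdown 2, numbered as the sample titles number the hairpins) and 1 control library with normal METTL3. Methylated RNA was immunoprecipitated from TE-10 cells with normal METTL3 in 2 samples, with 1 input sample; the antibodies carry different catalogue numbers. Whether the libraries came from separate cultures is not stated in the labels, so a p-value here speaks only for the variation among the libraries measured, part of which may be technical.

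At the G2 to M transition, cyclin B joins the kinase CDK1, CDC25 phosphatases remove the inhibitory phosphates from CDK1, and the Aurora and Polo kinases build the spindle. The spindle checkpoint holds back the anaphase-promoting complex, or APC/C, a ubiquitin ligase, until every kinetochore is attached. APC/C with CDC20 then marks securin and cyclin B for destruction, and the cell divides. Most of these genes are transcribed together late in the cell cycle, through the MuvB complex with MYBL2 and FOXM1 at a short promoter element called the cell cycle homology region (CHR), and through NF-Y at CCAAT boxes.

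METTL3 itself was at 8.35 in knockdown 1 and 4.99 in knockdown 2, against 20.8 in the control, a log2 change of -1.54 (SE 0.327; limma unadjusted p = 0.00337, adjusted p = 1). All values are expression values as deposited, in a unit that the files do not state, so levels are compared between libraries and not between genes. The columns sum to 617840 and 627152 in the knockdown libraries and 608291 in the control; sequencing depth is unknown. Knockdown 2 stood apart. CDKN2A, which encodes the CDK inhibitor p16, was at 0 in knockdown 1 and 145 in knockdown 2, against 0.04 in the control, the homeobox gene HOXB9 was at 0.35 (knockdown 1), 53.1 (knockdown 2) and 0.03 (control), and IRS4, an adaptor of insulin signalling, was at 0.04 (knockdown 1), 23.6 (knockdown 2) and 0.05 (control). HOXB9 and IRS4 were chosen after their values were seen. The summed level of 9 squamous markers (KRT5, KRT14, TP63 and others) was 3774 in knockdown 1 and 2417 in knockdown 2, against 3907 in the control, with 9 of 9 lower in knockdown 2 and 6 of 9 in knockdown 1. Of 7 embryonic kidney markers 3 passed the filter on low values, with sums over all 7 of 17.4 (knockdown 1), 30.1 (knockdown 2) and 17.1 (control). Among these, SIX2 was at 3.14 (knockdown 1), 8.47 (knockdown 2) and 3.82 (control). PAX2, WT1 and LHX1 stayed under the filter, at 0.78, 0.69 and 0.29 in knockdown 2, against 0, 0.02 and 0 in knockdown 1 and 0.01, 0.02 and 0 in the control. Markers of fibroblasts, leukocytes and endothelium were near 0 apart from COL1A1, which was at 3.60 in knockdown 1 and 3.59 in knockdown 2, against 3.34 in the control, and CD68, a protein also of lysosomes, which was at 7.88 (knockdown 1), 9.93 (knockdown 2) and 18.8 (control). Whether the cells of knockdown 2 are TE-10 cells that differ from the control in METTL3 alone was not tested, and in every knockdown 2 value below an effect of the knockdown and another difference of that library cannot be told apart. Differences from the control are therefore given for each knockdown library on its own.

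Most of the genes with a promoter entry hold short elements that the choice of members did not use. RefSeq promoters (GRCh38.p14, from 250 bases before to 50 after an annotated start) were at hand for 36 of the 43 genes, with 46 annotated starts. FOXM1, AURKA, TPX2, BIRC5, BUB3, TTK and UBE2C have no entry. The CHR core was searched as TTTGAA or TTCGAA and the NF-Y element as CCAAT, each on both strands, with overlaps between the elements allowed. At least 1 CHR core lay in 28 of 36 genes (77.8%), beside 15.1% of the 9941 genes that passed the expression filter and had a promoter entry. A CCAAT box lay in 30 of 36 (83.3%), beside 43.5%, and both elements in 24 of 36 (66.7%), beside 6.4%. Counted over starts in place of genes, a CHR core was in 67.4% of the 46 members' starts and in 11.6% of 14556 starts. These are matches of letters and not tested binding sites.

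The promoters below show the arrangement in 8 genes that hold both elements, and in CCNB1 and AURKB. In the windows at their annotated starts, the only part searched, CCNB1 and AURKB hold a CCAAT box alone. The 10 genes were chosen after the matches were seen. Each is the stretch of 130 bases before the most upstream annotated start (GRCh38.p14), 5′ to 3′ on the strand of the gene, with CHR cores and CCAAT boxes of either orientation in capitals.
CCNB2, chr15:59105016-59105145, plus strand: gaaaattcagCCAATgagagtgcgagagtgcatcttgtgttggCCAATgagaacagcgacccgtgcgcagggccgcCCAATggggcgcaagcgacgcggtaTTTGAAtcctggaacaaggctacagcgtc
CDC20, chr1:43358851-43358980, plus strand: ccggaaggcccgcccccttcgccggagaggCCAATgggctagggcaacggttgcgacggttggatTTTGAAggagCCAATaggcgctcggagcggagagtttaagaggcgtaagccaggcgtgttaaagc
PLK1, chr16:23678759-23678888, plus strand: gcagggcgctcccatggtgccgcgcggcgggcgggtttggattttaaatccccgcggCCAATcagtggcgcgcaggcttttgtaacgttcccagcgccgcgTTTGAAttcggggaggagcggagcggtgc
KIF11, chr10:92593000-92593129, plus strand: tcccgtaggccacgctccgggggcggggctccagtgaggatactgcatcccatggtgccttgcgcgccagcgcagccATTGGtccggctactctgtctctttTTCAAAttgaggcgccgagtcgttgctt
KIF4A, chrX:70289974-70290103, plus strand: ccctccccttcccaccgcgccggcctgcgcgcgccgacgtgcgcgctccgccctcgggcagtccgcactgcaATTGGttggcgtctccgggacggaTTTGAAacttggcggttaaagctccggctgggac
KIF23, chr15:69414219-69414348, plus strand: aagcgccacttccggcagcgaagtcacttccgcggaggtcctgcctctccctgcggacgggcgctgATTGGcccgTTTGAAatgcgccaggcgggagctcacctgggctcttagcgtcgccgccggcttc
PRC1, chr15:90994536-90994665, minus strand: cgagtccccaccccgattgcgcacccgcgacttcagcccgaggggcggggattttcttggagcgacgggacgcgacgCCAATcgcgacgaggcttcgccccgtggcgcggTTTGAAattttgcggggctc
MKI67, chr10:128126424-128126553, minus strand: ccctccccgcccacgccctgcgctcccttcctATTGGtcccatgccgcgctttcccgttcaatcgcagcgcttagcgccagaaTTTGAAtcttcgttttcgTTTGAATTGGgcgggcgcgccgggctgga
CCNB1, chr5:69167020-69167149, plus strand: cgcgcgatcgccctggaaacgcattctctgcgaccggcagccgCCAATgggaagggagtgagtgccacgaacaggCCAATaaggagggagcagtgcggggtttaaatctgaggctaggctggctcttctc
AURKB, chr17:8210250-8210379, minus strand: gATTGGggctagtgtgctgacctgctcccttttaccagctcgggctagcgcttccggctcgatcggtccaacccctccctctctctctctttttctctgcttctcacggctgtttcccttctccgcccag

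In CCNB2 the stretch held 3 CCAAT boxes, with first bases at -120, -87 and -54 from the start, followed by TTTGAA at -29. PLK1 had CCAAT at -73 and TTTGAA at -29, and PRC1 had CCAAT at -53 and TTTGAA at -20. In KIF11 the CHR core was in the reverse orientation, as TTCAAA at -28. MKI67 had TTTGAA at -47 and at -29, the second sharing its last base with an ATTGG at -24. CDC20 differed in order, with TTTGAA at -65 between CCAAT boxes at -100 and -55. CCNB1 had CCAAT at -87 and -55, and neither CHR spelling is among the letters of its window. Of the 43 CHR matches in the members 33 (76.7%) began between -100 and 50, against 40% of 1879 matches in all genes tested, and 31 of the 43 read TTTGAA on the strand of the gene. Of 69 CCAAT matches 47 (68.1%) began in that interval, against 51.8% of 7796. Matches were counted at each annotated start, so a site within overlapping windows of a gene was counted again. This held for a CHR core in CDC25C and in ECT2, and for CCAAT boxes in CDC25C, PTTG1 and AURKB.

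**Figure D1:**
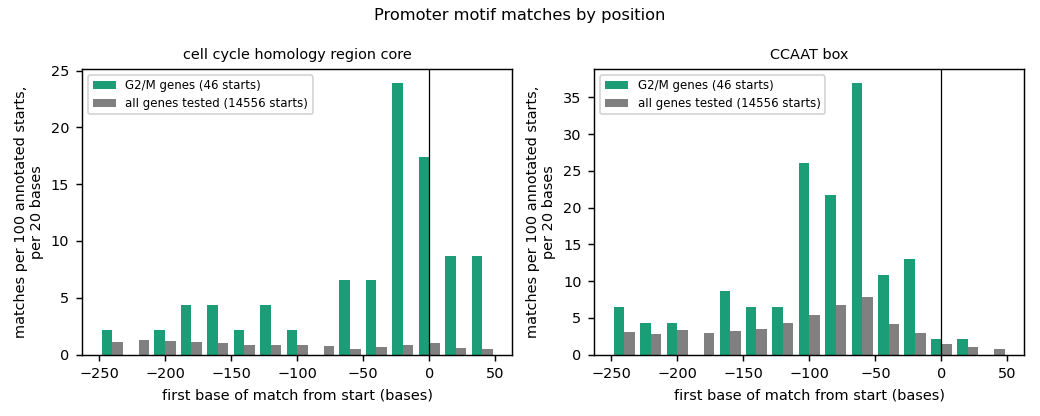
Matches of the CHR core (left) and of the CCAAT box (right) per 100 annotated starts, in steps of 20 bases from 250 bases before to 50 after the start; green bars are the 46 starts of the G2/M genes and grey bars the 14556 starts of all genes tested. In the G2/M genes the CHR core was most frequent in the step that begins at -30, at 23.9 matches per 100 starts against 0.824, and CCAAT in the step that begins at -70, at 37.0 against 7.85.

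On knockdown of METTL3 no G2/M gene passed the test. Knockdown was compared with control by limma on log2(value + 1), with Benjamini-Hochberg adjustment over the 12375 genes whose value reached 1 in any library; 41 of the 43 genes passed this filter, and CENPE and KIF14 did not. None of the 41 passed an adjusted p of 0.05 (0% of all genes tested did), and none had an unadjusted p under 0.05, beside 1.31% of all genes (162). The lowest unadjusted p among them in limma was 0.192, for INCENP. The fit has 1 residual degree of freedom, which the knockdown pair supplies, and takes the lone control to be as variable as that pair. The standard errors of the 41 log2 changes ran from 0.234 to 0.442, with a median of 0.253, so the lack of calls does not show that levels were the same. Fewer cells in G2 and M and less RNA per cell cannot be told apart in these bulk libraries.

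The differences between libraries were small on the scale of log2(value + 1), where the added 1 shrinks each fold. In knockdown 1 the median log2 difference of the 41 genes from the control was -0.03, against -0.01 over all genes tested. In knockdown 2 it was -0.07, against 0.00 over all genes. None of the 41 differed from the control by 1.5-fold on this scale in knockdown 1, where 4.29% of all genes did, and none in knockdown 2, where 13.6% did. At 1.25-fold, a threshold chosen after seeing the data, 2 of the 41 differed in knockdown 1 (4.88%, beside 19.7% of all genes): UBE2C was higher and INCENP lower. In knockdown 2 there were 5 (12.2%, beside 34.9%): AURKB, CENPF and NEK2 were higher and ANLN and PRC1 lower. With a pseudocount of 0.1 in place of 1, AURKB (log2 difference 0.595), CENPF (0.678) and ANLN (-0.594) passed 1.5-fold in knockdown 2. The SD of the log2 differences over the 41 genes was 0.186 in knockdown 1 and 0.218 in knockdown 2, against 0.279 and 0.491 over all genes. Among genes with a mean of at least 5 the SDs were 0.191 and 0.210 for 37 members and 0.269 and 0.418 for all 8258. Both differences share the control library, so the directions in knockdown 1 and knockdown 2 are not independent: 9 genes were higher in both (22%, beside 28% of all genes) and 19 lower in both (46.3%, beside 30.4%). ASPM, 1 of the 19, passed the filter by its control value alone (1.23, against 0.93 in both knockdown libraries). Its direction was therefore fixed by the filter. Among genes with a mean of at least 5, 8 of 37 members were higher in both (21.6%, beside 27.7%) and 17 lower (45.9%, beside 31.3%).

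**Figure D2:**
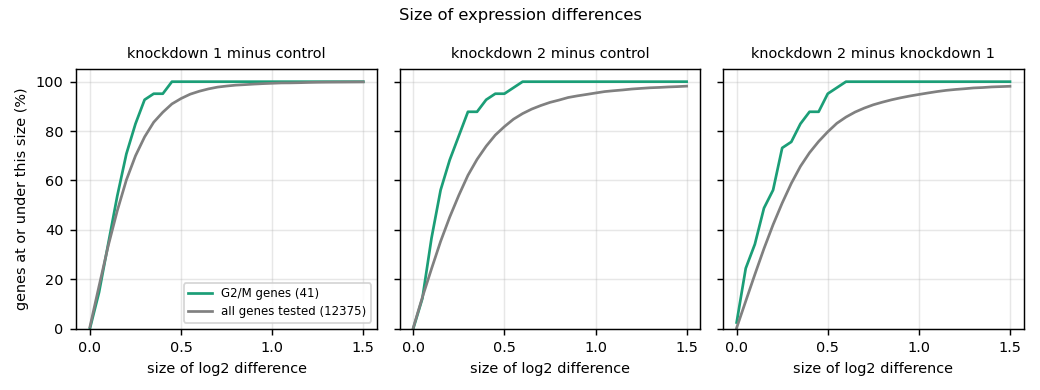
Share of genes (vertical axis, %) whose log2 difference is at or under the size on the horizontal axis, for knockdown 1 minus control, knockdown 2 minus control and knockdown 2 minus knockdown 1; green lines are the 41 G2/M genes and grey lines all 12375 genes tested. The green line lies above the grey one from a size of about 0.1 upward, and reaches 100% by 0.6 in each panel.

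The genes of mitotic entry lay close to the control in both knockdown libraries. CDK1, the kinase that drives entry into mitosis, was at 39.7 in knockdown 1 and 37.5 in knockdown 2, against 40.5 in the control. CCNA2, its cyclin partner from S phase into early mitosis, was at 52.4 (knockdown 1), 44.9 (knockdown 2) and 49.6 (control). CCNB1, the main mitotic cyclin, was at 44.2 in knockdown 1 and 45.0 in knockdown 2, against 41.8 in the control. None of these was 1.25-fold from the control in either library. CCNB2, a second B-type cyclin, was at 102 (knockdown 1), 84.7 (knockdown 2) and 92.0 (control), and CDC25B, a phosphatase that activates CDK1, was at 52.5 in knockdown 1 and 41.1 in knockdown 2, against 46.0 in the control. CDC25C, its relative, was at 6.44 (knockdown 1), 7.50 (knockdown 2) and 6.08 (control). FOXM1, the transcription factor that switches on many genes of this list, was at 188 in knockdown 1 and 150.2 in knockdown 2, against 158 in the control, so that knockdown 1 lay above the control and knockdown 2 just below it. CCNA2, CCNB2, CDC25B and FOXM1 had this same pattern, with log2 differences of 0.08, 0.14, 0.19 and 0.25 in knockdown 1 and -0.14, -0.12, -0.16 and -0.07 in knockdown 2.

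Among the mitotic kinases, PLK1, the Polo kinase of centrosome maturation and spindle assembly, was at 62.7 in knockdown 1 and 63.4 in knockdown 2, against 58.1 in the control. AURKA, the Aurora kinase of the centrosome and spindle poles, was at 50.9 (knockdown 1), 45.2 (knockdown 2) and 43.6 (control). TPX2, which binds AURKA at the spindle and activates it, was at 48.2 in knockdown 1 and 36.3 in knockdown 2, against 39.9 in the control. NEK2, a kinase that separates the centrosomes, was at 8.35 (knockdown 1), 9.94 (knockdown 2) and 7.47 (control). PLK1, AURKA and NEK2 were above the control in both libraries and TPX2 in knockdown 1 alone; the log2 change of NEK2 was 0.26 (SE 0.25; limma adjusted p = 1).

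The chromosomal passenger complex, which corrects faulty attachments and directs cytokinesis, had members on both sides of the control in knockdown 2, with the largest SD of log2 differences there of the 9 roles (0.469 over 3 genes). AURKB, its kinase, was at 44.0 in knockdown 1 and 65.9 in knockdown 2, against 43.6 in the control. The value in knockdown 2 lay well above both other libraries, which were near each other. Its log2 difference in knockdown 2 was 0.58, just under 1.5-fold on the scale of log2(value + 1). With a pseudocount of 0.1 it was 0.595, past 1.5-fold. In knockdown 1 the log2 difference was 0.01, a sign that turned with equal column sums and with quantile normalization. The log2 change over both libraries was 0.30 (SE 0.315; limma adjusted p = 1). INCENP, the scaffold that activates AURKB, was at 10.8 in knockdown 1 and 11.9 in knockdown 2, against 14.7 in the control, lower in both libraries, with a log2 change of -0.35 (SE 0.238; limma adjusted p = 1). BIRC5, the survivin subunit that brings the complex to centromeres, was at 120.3 (knockdown 1), 103 (knockdown 2) and 115 (control).

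Of the 10 genes of the kinetochore and the spindle checkpoint, BUB1 and TTK had the largest difference between the knockdown libraries. BUB1, a kinase that recruits checkpoint proteins to kinetochores, was at 9.54 in knockdown 1 and 13.7 in knockdown 2, against 11.2 in the control. TTK, the kinase that starts checkpoint signalling, was at 4.88 in knockdown 1 and 7.32 in knockdown 2, against 6.24 in the control. In both genes knockdown 1 lay below the control and knockdown 2 above it. BUB1B, the BUBR1 subunit of the checkpoint complex, was at 9.35 (knockdown 1), 10.3 (knockdown 2) and 10.8 (control), and BUB3, its partner, at 52.4 (knockdown 1), 52.1 (knockdown 2) and 46.6 (control). MAD2L1, which binds and blocks CDC20, was at 56.8 in knockdown 1 and 65.7 in knockdown 2, against 69.9 in the control. The microtubule-binding subunits NDC80 and NUF2 form a dimer; NDC80 was at 7.02 (knockdown 1), 6.92 (knockdown 2) and 7.08 (control) and NUF2 at 8.65 (knockdown 1), 9.45 (knockdown 2) and 10.1 (control). CENPA, the histone H3 variant of the centromere, was at 34.5 in knockdown 1 and 37.7 in knockdown 2, against 37.0 in the control. CENPF, a large kinetochore protein, was at 1.16 in knockdown 1 and 1.74 in knockdown 2, against 1.05 in the control, and the motor CENPE at 0.84 (knockdown 1), 0.95 (knockdown 2) and 0.79 (control), under the filter. CENPF had a log2 difference of 0.42 in knockdown 2, at values where a pseudocount of 1 weighs heavily. BUB3 and CENPF were above the control in both libraries and BUB1B, MAD2L1, NDC80 and NUF2 below it, although the sign of NDC80 in knockdown 1 and that of CENPA in knockdown 2 turned under another scaling.

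The anaphase genes include the member with the highest difference from the control in knockdown 1. UBE2C, the ubiquitin-conjugating enzyme of APC/C, was at 377 in knockdown 1 and 269.9 in knockdown 2, against 281 in the control. Its log2 difference was 0.42 in knockdown 1 and -0.06 in knockdown 2, where it turned positive with quantile normalization. CDC20, the activator of APC/C, was at 88.9 (knockdown 1), 87.9 (knockdown 2) and 90.4 (control). PTTG1, or securin, the inhibitor of separase that APC/C destroys, was at 195 in knockdown 1 and 185 in knockdown 2, against 223 in the control, lower in both libraries. It has near-identical gene copies that can share reads, so its value is uncertain.

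The kinesins lay near the control; of the 7 tested, 5 were lower in both libraries and none higher in both, beside 30.4% and 28% of all genes tested, and both differences share the control library. KIF11, the motor that pushes spindle poles apart, was at 7.69 in knockdown 1 and 7.89 in knockdown 2, against 8.36 in the control. KIF2C, which depolymerizes microtubule ends at centromeres, was at 18.1 (knockdown 1), 20.1 (knockdown 2) and 20.7 (control). KIF20A, a motor of cytokinesis, was at 21.6 in knockdown 1 and 21.2 in knockdown 2, against 23.0 in the control. KIF20B, its relative at the midbody, was at 1.76 (knockdown 1), 1.59 (knockdown 2) and 2.03 (control), and KIF4A, a motor of chromosome arms and the central spindle, at 6.64 in knockdown 1 and 6.70 in knockdown 2, against 7.22 in the control. These 5 had log2 differences between -0.23 and -0.04 in knockdown 2. KIF4A has a near-identical intronless copy, KIF4B, listed at 0 (knockdown 1), 0.03 (knockdown 2) and 0 (control), so reads assigned between them are uncertain. KIF23, the motor subunit of centralspindlin, was at 18.1 (knockdown 1), 15.2 (knockdown 2) and 16.4 (control), and KIF18A, which dampens chromosome movements at the metaphase plate, at 2.84 in knockdown 1 and 3.44 in knockdown 2, against 2.92 in the control. KIF14, a motor of late cytokinesis, stayed under the filter at 0.83 (knockdown 1), 0.91 (knockdown 2) and 0.84 (control).

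The genes of the spindle and its midzone included the member with the second lowest difference in knockdown 2. PRC1, which bundles the antiparallel microtubules of the midzone, was at 63.2 in knockdown 1 and 48.9 in knockdown 2, against 64.6 in the control, with knockdown 2 below both other libraries. DLGAP5, a spindle protein that stabilizes kinetochore fibres, was at 12.7 (knockdown 1), 13.4 (knockdown 2) and 14.8 (control). NUSAP1, a microtubule-binding spindle protein, was at 54.6 in knockdown 1 and 64.1 in knockdown 2, against 59.7 in the control. ASPM, a protein of the spindle poles, was at 0.93 in both knockdown libraries, against 1.23 in the control. It passed the filter by the control value alone, which fixed its direction. In cytokinesis, ANLN, the anillin that organizes the contractile ring, was at 11.5 in knockdown 1 and 8.06 in knockdown 2, against 12.2 in the control. Its log2 difference of -0.55 in knockdown 2 was the lowest of the 41 genes, against -0.08 in knockdown 1, and the log2 change over both was -0.31 (SE 0.286; limma adjusted p = 1). ECT2, the exchange factor that activates RhoA at the cleavage furrow, was at 12.8 (knockdown 1), 14.1 (knockdown 2) and 14.4 (control). MKI67, the Ki-67 protein that coats mitotic chromosomes and serves as a proliferation marker, was at 4.77 in knockdown 1 and 5.19 in knockdown 2, against 6.05 in the control. TOP2A, the topoisomerase that untangles sister chromatids, was at 16.7 (knockdown 1), 16.5 (knockdown 2) and 13.9 (control). MKI67 was lower and TOP2A higher in both libraries, with log2 changes of -0.24 (SE 0.256) and 0.24 (SE 0.234) on the log2 scale (limma adjusted p = 1 for both).

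**Figure D3:**
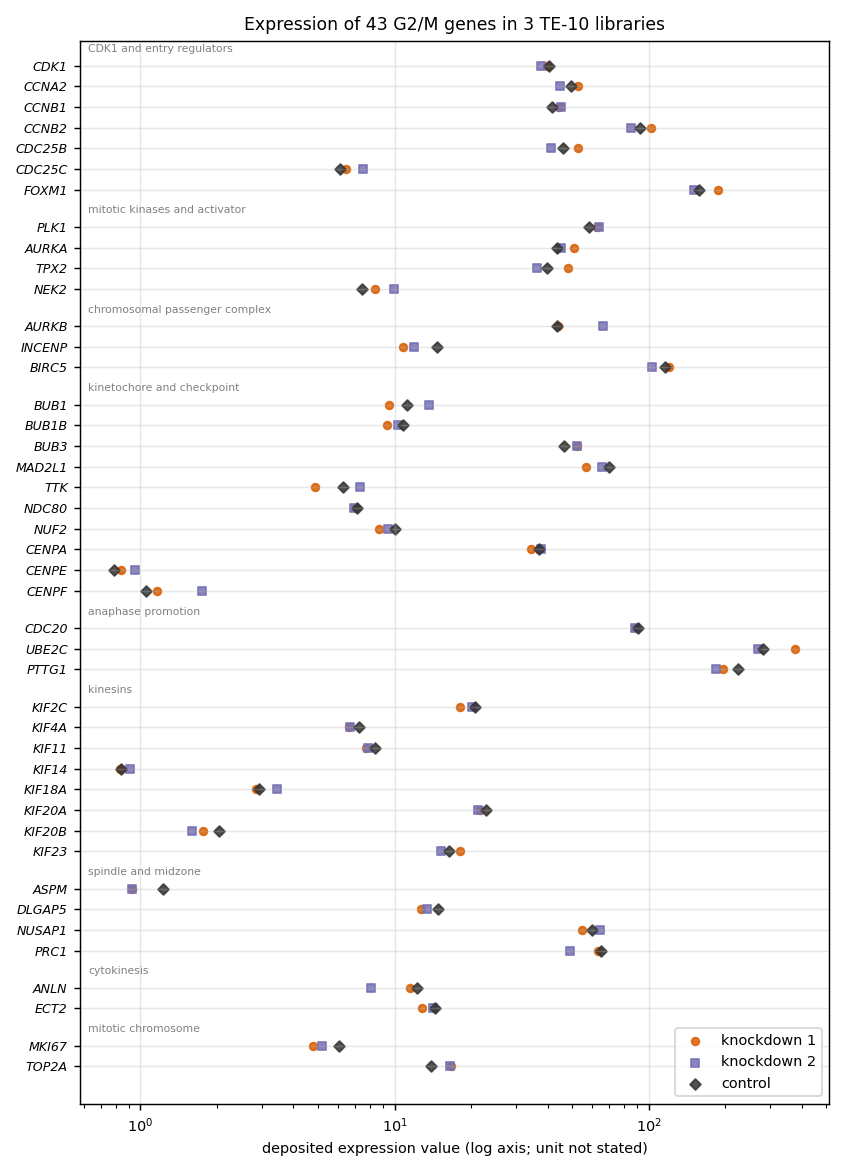
Deposited expression value (horizontal log axis, unit not stated) of each of the 43 genes, grouped by role; circles are knockdown 1, squares knockdown 2 and diamonds the control, 1 library each. The 3 marks of a gene lie close together in most rows, and AURKB (65.9 in knockdown 2), UBE2C (377 in knockdown 1) and ANLN (8.06 in knockdown 2) show a library apart from the others.

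**Figure D4:**
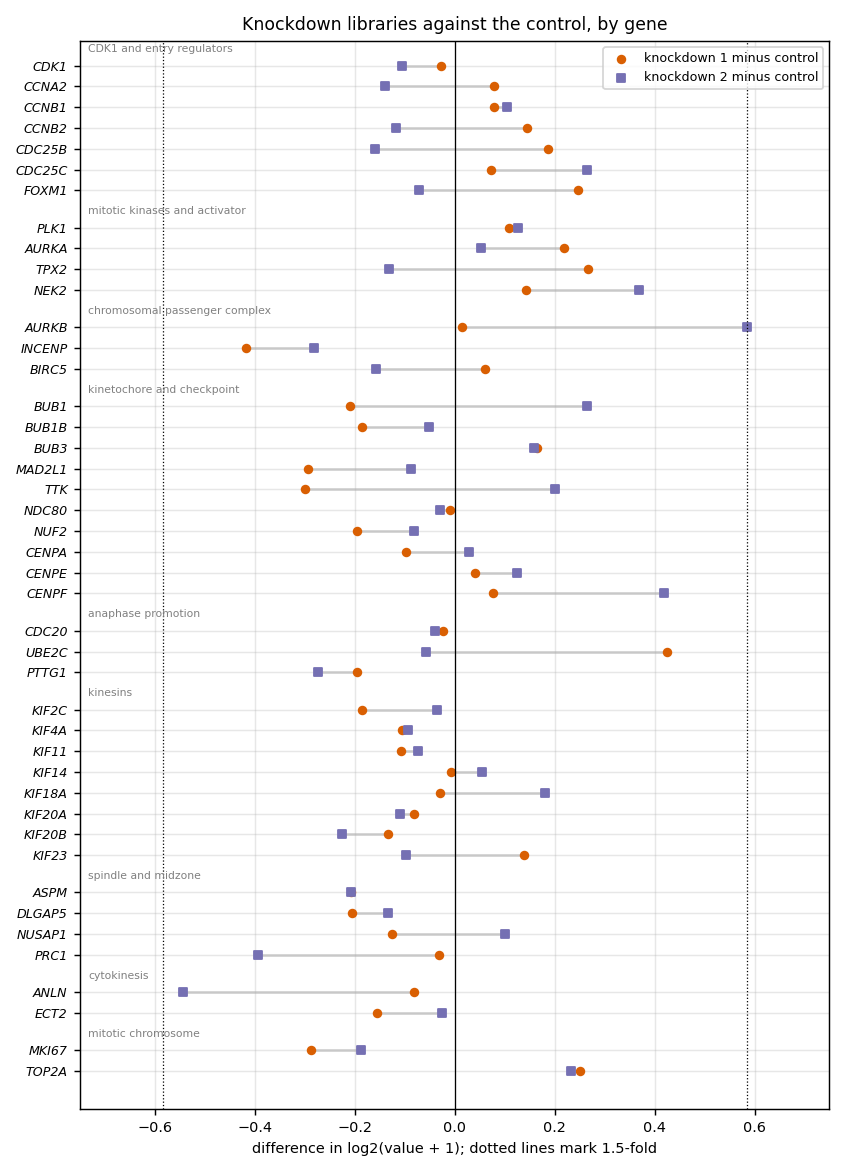
Difference in log2(value + 1) of knockdown 1 (circles) and knockdown 2 (squares) from the control for each of the 43 genes, grouped by role; dotted lines mark 1.5-fold. No mark lies beyond the dotted lines; AURKB at 0.58 and ANLN at -0.55 in knockdown 2 come nearest.

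The knockdown libraries were also compared with each other, without a test since each hairpin has 1 library. Knockdown 2 had a median log2 difference of 0.01 from knockdown 1 over the 41 genes, against 0.03 over all genes tested. None of the 41 was 1.5-fold apart on the scale of log2(value + 1), beside 15% of all genes. The added 1 shrinks each fold, so the ratios of the deposited values below are larger. On the same scale 9 were 1.25-fold apart (22%, beside 38%). AURKB (65.9 in knockdown 2, against 44.0 in knockdown 1), TTK (7.32 in knockdown 2, against 4.88 in knockdown 1), BUB1 (13.7 in knockdown 2, against 9.54 in knockdown 1) and CENPF (1.74 in knockdown 2, against 1.16 in knockdown 1) were higher in knockdown 2. UBE2C (269.9 in knockdown 2, against 377 in knockdown 1), ANLN (8.06 in knockdown 2, against 11.5 in knockdown 1), TPX2 (36.3 in knockdown 2, against 48.2 in knockdown 1), PRC1 (48.9 in knockdown 2, against 63.2 in knockdown 1) and CDC25B (41.1 in knockdown 2, against 52.5 in knockdown 1) were lower. The difference between the libraries ran from -0.48 for UBE2C to 0.57 for AURKB on the log2 scale. These 9 genes come from 7 of the 9 roles. CDKN2A was at 145 in knockdown 2, against 0 in knockdown 1, and the part of that library's other differences in these values was not tested.

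The other genes of mitosis were read from lists of their own, and no gene of those lists passed the adjusted threshold of limma. Medians are of log2 differences from the control, and all genes tested had medians of -0.01 (knockdown 1) and 0.00 (knockdown 2), with 28% higher and 30.4% lower in both. Of 33 other kinetochore genes 18 were higher in both knockdown libraries and 2 lower, and their medians were 0.10 (knockdown 1) and 0.09 (knockdown 2); ZWINT, which joins the checkpoint to the outer kinetochore, was at 77.0 in knockdown 1 and 67.5 in knockdown 2, against 66.5 in the control, and CENPM at 107 (knockdown 1), 81.5 (knockdown 2) and 87.0 (control). Of 18 subunits and regulators of APC/C 6 were higher and 5 lower in both, with UBE2S, its chain-elongating enzyme, at 384 in knockdown 1 and 266 in knockdown 2, against 312 in the control, and the subunit ANAPC11 at 128 (knockdown 1), 107 (knockdown 2) and 137 (control). Of 8 condensin genes 4 were higher and 1, NCAPD2, lower in both (40.2 in knockdown 1 and 35.8 in knockdown 2, against 50.9 in the control); NCAPH2 was at 93.4 (knockdown 1), 77.6 (knockdown 2) and 86.9 (control). The list of cohesin and separase genes was split, 5 higher and 4 lower of 13. RAD21 was at 87.6 in knockdown 1 and 66.5 in knockdown 2, against 89.9 in the control. CDCA5 was at 67.3 (knockdown 1), 61.8 (knockdown 2) and 72.2 (control). This list also holds CDCA8, which encodes a subunit of the chromosomal passenger complex and not of cohesin. CDCA8 is among the 5 higher, at 16.66 (knockdown 1), 17.97 (knockdown 2) and 13.37 (control). The same list, with CDCA8, was used for promoters and m6A peaks below. Of 31 other spindle and centrosome genes 8 were higher and 14 lower, with gamma-tubulin TUBG1 at 114 in knockdown 1 and 112 in knockdown 2, against 107 in the control and HAUS4 of the augmin complex at 79.9 (knockdown 1), 66.1 (knockdown 2) and 76.4 (control). Of 4 other cytokinesis genes 2 were lower in both and none higher; CEP55, which recruits the abscission machinery, was at 31.2 in knockdown 1 and 22.5 in knockdown 2, against 33.0 in the control, and RACGAP1, the partner of KIF23, at 31.1 (knockdown 1), 27.8 (knockdown 2) and 30.6 (control).

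The lists of upstream regulators were split in direction. Of 10 genes of the G2 checkpoint and mitotic entry 4 were higher and 3 lower in both libraries. ENSA and ARPP19 encode inhibitors of the phosphatase PP2A when phosphorylated. ENSA was at 229 in knockdown 1 and 214 in knockdown 2, against 213 in the control. ARPP19 was at 42.3 (knockdown 1), 45.7 (knockdown 2) and 48.1 (control). On the scale of log2(value + 1), MASTL alone differed by 1.5-fold in knockdown 1 (10%, beside 4.29% of all genes). It was at 10.95, against 18.65 in knockdown 2 and 18.1 in the control. In knockdown 2 CDC25A alone did (10%, beside 13.6%), at 12.7, against 7.01 in knockdown 1 and 4.57 in the control. Of 15 MuvB, MYB, E2F and NF-Y factors 2 were higher and 2 lower; MYBL2, which opens transcription of this gene set with MuvB, was at 486 in knockdown 1 and 335 in knockdown 2, against 355 in the control, and the repressor E2F4 at 125 (knockdown 1), 87.7 (knockdown 2) and 101 (control). MYBL2, E2F4 and FOXM1 had the same order of libraries, with knockdown 1 highest. Of 19 other G2/M genes 4 were higher and 5 lower, with CKS1B, a CDK-binding protein, at 352 in knockdown 1 and 288 in knockdown 2, against 372 in the control and the tubulin gene TUBB4B at 291 (knockdown 1), 243 (knockdown 2) and 253 (control). The list of 30 G1/S genes, the phase before, had median differences of 0.12 (knockdown 1) and 0.16 (knockdown 2), with 17 higher and 3 lower in both; PCNA, the replication clamp, was at 124 in knockdown 1 and 150.3 in knockdown 2, against 86.1 in the control, and TYMS, which makes thymidylate, at 138 (knockdown 1), 109 (knockdown 2) and 117 (control). The difference between the G1/S and G2/M lists was not tested. Among 7 CDK inhibitors CDKN1A was at 54.7 in knockdown 1 and 54.2 in knockdown 2, against 67.8 in the control. CHR cores, found in 77.8% of the members' promoters and 15.1% of all genes tested, lay in 6 of 7 condensin promoters (85.7%), 10 of 14 of the other G2/M genes (71.4%), 2 of 3 of the other cytokinesis genes (66.7%), 6 of 12 of cohesin and separase (50%) and 4 of 8 of the G2 checkpoint genes (50%). The shares were 14 of 29 for the other spindle and centrosome genes (48.3%), 12 of 26 for the other kinetochore genes (46.2%), 6 of 13 for the MuvB, MYB and NF-Y factors (46.2%) and 5 of 18 for APC/C (27.8%). The G1/S list had 2 of 25 (8%) and the CDK inhibitors 0 of 6.

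The m6A peak list was read for the same genes. It gives a peak for 17 of the 43 genes (39.5%), beside 56.6% of the 12375 genes tested, and 20 peaks in all. The 43 include CENPE and KIF14, which failed the expression filter, and of the 41 that passed it 16 had a peak. With symbols matched only as given, the shares were 39.5% of the 43 and 52.4% of the genes tested. The list holds no score, and no label says if the immunoprecipitations were combined for it, so peaks could not be ranked or checked between samples. Among genes with a mean of at least 5 the shares were 40.5% of 37 and 57.3% of 8258. Of the genes with no listed peak, CDK1, CCNB1, PLK1, FOXM1, AURKB, UBE2C, TOP2A and BIRC5 had values between 13.9 and 281 in the control.

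Nearly as many of the peaks lay at the start of the gene as elsewhere. The centre of 9 of 20 peaks (45%) was within 300 bases of the annotated start, beside 13.6% of the 12870 peaks in all genes tested. By class, 6 were in the 5′ UTR (30%, beside 11.5%), 2 upstream (10%, beside 6.94%), 5 in introns (25%, beside 22.3%), 4 in coding exons (20%, beside 37.3%) and 3 in the 3′ UTR (15%, beside 20.9%). Most were narrow, with a median width of 216 bases against 317. Coordinates are those of the list. The submitters' processing notes name hg38, but none of the gene starts that the list's distances imply for these 17 genes lay within 1000 bases of either end of the gene in GRCh38, and chromosome 1 has a peak end at 249212571 where the last GRCh38 gene ends at 248937099, so the coordinates were not read as hg38 and no peak sequence is given.

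The 9 peaks within 300 bases of the start belonged to 9 genes, among them 4 kinesins. Those in the 5′ UTR belonged to KIF14 (chr1:200589741-200589948, 18 bases from the start), MAD2L1 (chr4:120987868-120988068, 45 bases), NEK2 (chr1:211848824-211849027, 47 bases), KIF23 (chr15:69706555-69706882, 92 bases), KIF11 (chr10:94352825-94353036, 106 bases) and CDC25C (chr5:137673666-137673878, 272 bases). CDC20 (chr1:43824692-43824900, 171 bases) and PTTG1 (chr5:159848884-159849358, 257 bases) had an intronic peak just downstream of the start. KIF2C had 2 peaks in the upstream class, with centres at -32 and -1674 bases from the start (chr1:45205304-45205610 and chr1:45203710-45203920). KIF20A had an intronic peak 897 bases and a coding peak 8601 bases from the start (chr5:137515211-137515415 and chr5:137522914-137523121), and CENPF an intronic and a coding peak (chr1:214780479-214780700 and chr1:214836928-214837188). BUB1 had an intronic peak (chr2:111431890-111432089), and INCENP and TPX2 each a coding peak (chr11:61919135-61919385 and chr20:30388678-30388904). In the 3′ UTR, where m6A is known to gather near stop codons, there were peaks in AURKA (chr20:54944956-54945430), KIF4A (chrX:69640198-69640418) and MKI67 (chr10:129896385-129897598). That of MKI67 was the widest of the 20, at 1213 bases.

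**Figure D5:**
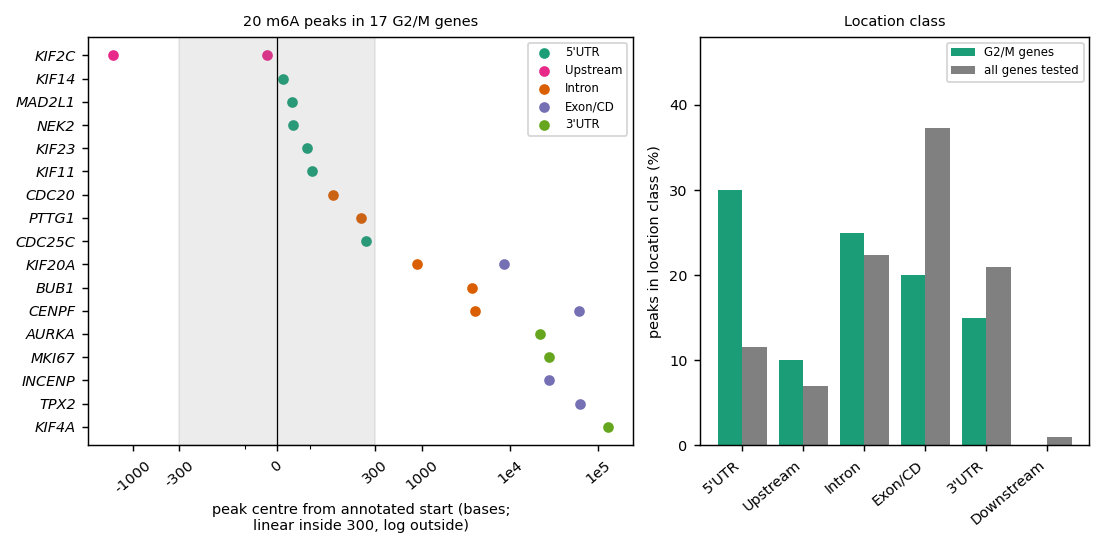
Left, distance in bases of each of the 20 m6A peak centres from the annotated start of its gene (linear within 300 bases, shaded, and log beyond), by gene and coloured by location class. Right, percent of peaks in each class for the G2/M genes (green) and for all genes tested (grey); 9 of the 20 peaks lie in the shaded interval, and 30% are in the 5′ UTR against 11.5%.

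Genes with a peak were also set beside those without one. The 16 tested genes with a peak had median log2 differences from the control of -0.09 (knockdown 1) and -0.08 (knockdown 2), and the 25 without a peak had -0.03 and -0.06. Of those with a peak 9 were lower and 4 higher in both libraries, and of those without 10 and 5. The 10 include ASPM, whose direction the filter fixed. The 8 tested genes with a peak within 300 bases of the start had medians of -0.07 and -0.06. Split by promoter, the 27 tested genes with a CHR core had medians of -0.10 and -0.08 and the 7 without one 0.01 and -0.04. Neither split was tested.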

How the data were processed

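RNA-seq and m6A immunoprecipitation libraries of TE-10 cells were sequenced. The submitters' processing notes name TopHat2, HTSeq, MACS2 and hg38, with no versions or settings. The authors deposited an expression signal per gene and library, in a unit not stated, and 1 annotated peak list without scores. The table holds no counts, so limma was used. Genes that reached a value of 1 in any library were kept, on the scale log2(value + 1). On the whole table, limma (version 3.58.1, R 4.3.3) was run with a variance trend. Its code was tried on simulated libraries that varied less than these, so that trial does not speak for its power here. The authors' normalization is unknown, and a fold on this scale understates the change of low genes. Alternatives were a pseudocount of 0.1, no filter, a mean of at least 5, median-of-ratios, equal-sum and quantile scaling, no trend, and each knockdown library left out. Peaks were matched by current or older symbol and promoters taken from RefSeq. Genes named are all 43, and of each other list the 2 with the highest mean and any past 1.5-fold alike in both libraries. CDCA8, CDC25A and MASTL were added to these after their values were seen. The members and lists were chosen with earlier results of these data known. Tables were handled in Python 3.11.15 with pandas 2.3.3.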

Additional observations from a re-analysis of the deposited data

How the results depend on the processing

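No gene passed limma's adjusted threshold under the 7 other settings of the fit; 123 to 444 genes, and 0 of the G2/M genes, had an unadjusted p under 0.05. The number of G2/M genes that differed by 1.5-fold in knockdown 2, which was 0, was 3 with a pseudocount of 0.1 (AURKB, CENPF and ANLN), 1 with equal column sums (ANLN) and 1 with quantile normalization (AURKB, which was then also the 1 gene that far apart between the knockdown libraries). At 1.25-fold, chosen after seeing the data, the counts were 2 in knockdown 1, 5 in knockdown 2 and 9 between the libraries. The median log2 change over both libraries, -0.03, was -0.0647 with equal column sums, and ran from -0.0718 without knockdown 1 to -0.0297 without knockdown 2. In knockdown 2 it was -0.114 with equal column sums in place of -0.07, where the median of all genes tested was -0.0373 in place of 0.00. The median difference of knockdown 2 from knockdown 1 was -0.0361 with median-of-ratios scaling in place of 0.01. All genes then had medians from the control of 0.00531 (knockdown 1) and -0.0246 (knockdown 2). Both scalings divide all genes of a library by the same factor. Scaling turned 6 of the genes' signs, in AURKB, NDC80, CDC20 and KIF18A (knockdown 1) and CENPA and UBE2C (knockdown 2). Exon and UTR peaks alone gave a peak in 30.2% of the genes, beside 45.9% of all genes tested; a window of 100 bases before the start gave a CHR core in 72.2%, beside 6.62%. No paired analysis was possible because the control is 1 library. With 1 library left out there are no residual degrees of freedom, so no test was made.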

Other observations

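The m6A list was also read for other genes of mitosis, beside 56.6% of all genes tested that had a peak. The share was 12 of 18 for APC/C (66.7%), 12 of 19 for the other G2/M genes (63.2%), 5 of 8 for condensins (62.5%) and 19 of 31 for the other spindle and centrosome genes (61.3%). It was 8 of 15 for the MuvB, MYB and NF-Y factors (53.3%), 5 of 10 for the G2 checkpoint genes (50%) and 2 of 4 for the other cytokinesis genes (50%). It was 6 of 13 for cohesin and separase (46.2%) and 13 of 33 for the other kinetochore genes (39.4%). Of the 33 peaks in spindle and centrosome genes 16 were in coding exons and 6 within 300 bases of the start, where all genes tested had 37.3% and 13.6% of their peaks. Of the 21 in kinetochore genes 7 were in coding exons, 8 in the 3′ UTR (beside 20.9%) and 4 within 300 bases of the start. These shares are descriptions and were not tested against each other.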
